A study of Mus musculus with 4 samples.

Results

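Granins and the enzymes that cut and trim peptide precursors were followed in the dentate gyrus of mice that had been handled and given no other treatment. The genes were chosen by symbol: the granins Chga, Chgb and Scg2, the convertase-binding protein Scg5, the convertases Pcsk1 and Pcsk2, the trimming enzyme Cpe and the amidating enzyme Pam. All probe sets annotated with 1 of these symbols alone were taken, which gave 10 probe sets of 7 genes out of 10833 single-symbol probe sets of 8251 genes. Pcsk2 had no such probe set, so its expression is not analysed here.

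The 4 samples are total RNA from the hippocampal dentate gyrus of young male C57BL/6J mice, all handled controls, with 1 array at each of 1, 2, 4 and 6 h. The hours count from the last shock given to parallel experimental mice, which are not analysed here. How many mice stand behind a sample is not stated. The comparison the design allows is between hours among handled controls, and with 1 array per hour the hour and the individual sample cannot be told apart.

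Neurons store peptides in dense core vesicles. Granins are acidic proteins that condense with the peptide precursors in the Golgi and help to form these vesicles. Prohormone convertases then cut the precursors after pairs of basic residues, carboxypeptidase E removes the basic residues left at the new end, and the amidating enzyme finishes many peptides with a C-terminal amide. In the dentate gyrus, granule cells, mossy cells and interneurons all use this pathway.

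Values are array intensities on a linear scale, 1 per probe set and sample, and the number of arrays limits their precision. A probe set was tested if its mean log2 intensity reached 6.91 (an intensity of 120), the 40th percentile of single-symbol probe sets. An intensity below 38.3, the 20th percentile over the table, was treated as not measurable. Of the 10 probe sets, 7 passed: both of Chga, both of Cpe, 1 of Chgb, and those of Scg2 and Scg5. The second Chgb probe set and those of Pcsk1 and Pam did not. The levels of different probe sets are not compared, because each binds its own target with its own strength.

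Markers of dentate granule cells were measured in all samples. Calb1, the calcium buffer calbindin of adult granule neurons, had intensities of 2541.7, 3026.3, 2505.9 and 2453.3 at 1, 2, 4 and 6 h, and the granule cell transcription factor Prox1 had 184.2, 153.5, 182 and 249.1. Summed over the 7 granule cell markers with a probe set, of which 5 passed the filter, the level was between 37608.4 and 41770.6. Calb1 and Prox1 are a small part of that sum, so it mostly reflects other listed genes. For 5 CA field and mossy cell markers, all past the filter, the sum was 7301, 7289.2, 8489.1 and 6081.4. For 13 interneuron markers, 8 of them past the filter, the sum was between 14004.6 and 17207.5. The sum over 5 choroid plexus markers (3 past the filter) was 2159.3, 4961.3, 5805.3 and 3087.2. Its defining gene Ttr had 81.3, 233.6, 2408.1 and 191.2, so the 4 h sample stood apart for this gene. Without Ttr the sum of the other 4 markers was 2078, 4727.7, 3397.2 and 2896, highest at 2 h. Most of that sum at each hour was 1 gene, Igf2, with 1849.1, 4402.2, 2954.6 and 2520.8. It therefore does not show that the 4 markers moved together. The part of these cells in the values below was not tested. In such bulk samples, fewer cells of a type and less RNA per cell cannot be told apart.

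Chgb, the granin chromogranin B, had a bright first probe set with intensities of 22232.4 at 1 h, 15253.3 at 2 h, 16502.8 at 4 h and 20900.6 at 6 h. The 1 h and 6 h samples were the high ones and the 2 h and 4 h samples the low ones, with a 1.46-fold span. The mean was 18720 ± 3368 (SD, n = 4). It is of the f kind, which marks probes that can also match related sequences. The second Chgb probe set, built under relaxed design rules, was dim, with 89.2, 79, 121.2 and 70.2. It was highest at 4 h and lowest at 6 h, so it did not share the order of the first.

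Chga, or chromogranin A, the precursor of vasostatin and other peptides, had intensities of 656, 620.3, 447.7 and 569.2 on its first probe set. The 4 h sample was lowest and the 1 h sample highest, 1.47-fold apart, around a mean of 573.3 ± 91 (SD, n = 4). Its log2 range was 0.55, and 0.2 without the 4 h sample. The second Chga probe set, also of the f kind that can match related sequences, had 73.7, 184.5, 241.2 and 273.5, which is higher at every step and 3.71-fold from 1 h to 6 h. Its 1 h value is the lowest of its hours, where that of the first probe set is the highest. The log2 difference between the first and the second was 3.15 at 1 h, 1.75 at 2 h, 0.89 at 4 h and 1.06 at 6 h. The probe sets of this gene thus gave opposite directions between 1 h and 6 h.

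Scg2, or secretogranin II, the precursor of secretoneurin, had the narrowest range of the 7 probe sets past the filter. Its intensities were 1539.6, 1450.1, 1414.9 and 1455.9, a span of 1.09-fold around a mean of 1465 ± 52.9 (SD, n = 4). Of the probe sets past the filter, 1.55% had a narrower log2 range. That range was 0.12, against 0.32 with arrays scaled to equal medians and 0.041 without the 1 h sample.

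The start regions of the granins Scg2 and Chgb and of the convertase Pcsk1 share a sequence. The cyclic AMP response element TGACGTCA, the site bound by CREB, lies in each of them. The letters TGACG, a part of that element that can also stand alone, lie in the window of Chga. The 100 bases before each start are shown because the element sits at nearly the same distance in the 3 genes, with TGACGTCA or lone TGACG in capitals (RefSeq, GRCm38.p6, 5′ to 3′ on the gene's strand).
Scg2, chr1:79440027-79440126, minus strand: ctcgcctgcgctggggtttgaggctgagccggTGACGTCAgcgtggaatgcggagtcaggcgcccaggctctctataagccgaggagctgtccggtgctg
Chgb, chr2:132781542-132781641, plus strand: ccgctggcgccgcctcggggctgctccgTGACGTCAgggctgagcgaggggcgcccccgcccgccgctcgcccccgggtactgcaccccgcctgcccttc
Pcsk1, chr13:75089757-75089856, plus strand: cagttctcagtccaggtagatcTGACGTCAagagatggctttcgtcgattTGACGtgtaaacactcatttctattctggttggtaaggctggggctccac
Chga, chr12:102554841-102554940, plus strand: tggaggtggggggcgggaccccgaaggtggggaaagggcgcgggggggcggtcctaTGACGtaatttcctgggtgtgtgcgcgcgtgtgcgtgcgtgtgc

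TGACGTCA begins 68 bases before the start of Scg2, 72 before that of Chgb and 78 before that of Pcsk1. TGACG begins 44 bases before the start of Chga. Windows were found for 7 of the 8 genes and searched on both strands over the 250 bases before the start. TGACGTCA was in 3 of these 7 genes and in 1.55% of all 32851 windows. TGACG, which is also contained in TGACGTCA, was in 6 of the 7 genes (Pam was the one without) and in 17.8% of all windows. In the lists of related genes described below, TGACGTCA was in 2 of 17 precursors with a window (Cartpt and Sst). It was in 0 of 5 granin-related genes, 0 of 14 convertases and trimming enzymes, 0 of 12 degrading enzymes and 0 of 16 vesicle genes. The element was picked by hand for this search, so its share among the granin and processing genes carries no test. All of these are matches of letters and say nothing of binding in these samples. Intensities of the 3 genes with TGACGTCA had no order of hours in common: Chgb and Scg2 were highest at 1 h, while the dim Pcsk1 probe set was lowest there.

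Scg5 encodes 7B2, the chaperone that Pcsk2 needs to become active. Its intensities were 870.2, 1030, 837.4 and 991.3, with a mean of 932.2 ± 92.9 (SD, n = 4). The 2 h and 6 h samples were higher than the 1 h and 4 h samples, over a span of 1.23-fold. Of the 7 probe sets past the filter it was the one highest at 2 h.

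Pcsk1 encodes prohormone convertase 1/3, which makes the first cuts in many precursors. Its probe set was dim, with 17.6 at 1 h, 139 at 2 h, 151.1 at 4 h and 105.3 at 6 h. The 1 h value is under the measurable minimum of 38.3, so the 4 h value is at least 3.94-fold higher. The mean fell below the filter. A limma fit with no filter gave it 0.215 ± 0.215 log2 per h (SE, n = 4), which was not called.

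Cpe, carboxypeptidase E, had 2 probe sets, both bright. The first, of the f kind, had 22248.4, 20004.8, 17291.1 and 18704.6, with a mean of 19560 ± 2106 (SD, n = 4). The second, of the i kind with a reduced set of probes, had 13749.6, 11536.2, 10150.3 and 12599.3, with a mean of 12010 ± 1534 (SD, n = 4). Both were highest at 1 h and lowest at 4 h, 1.29-fold and 1.36-fold apart. They differed in the middle of the order, where the first put 2 h above 6 h and the second 6 h above 2 h. The log2 difference between them stayed between 0.57 and 0.79 at all hours.

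Pam encodes the enzyme that amidates peptide ends. Its probe set had 133.7, 60.1, 129.9 and 173, with the 2 h sample lowest and the 6 h sample highest, 2.88-fold apart. It lay just under the filter, with a mean log2 of 6.86 against the 6.91 required, while the second Chga probe set at 7.44 was the nearest above it. It was tested in the fit with no filter alone, with a slope of 0.165 ± 0.167 log2 per h (SE, n = 4), and was not called.

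**Figure D1:**
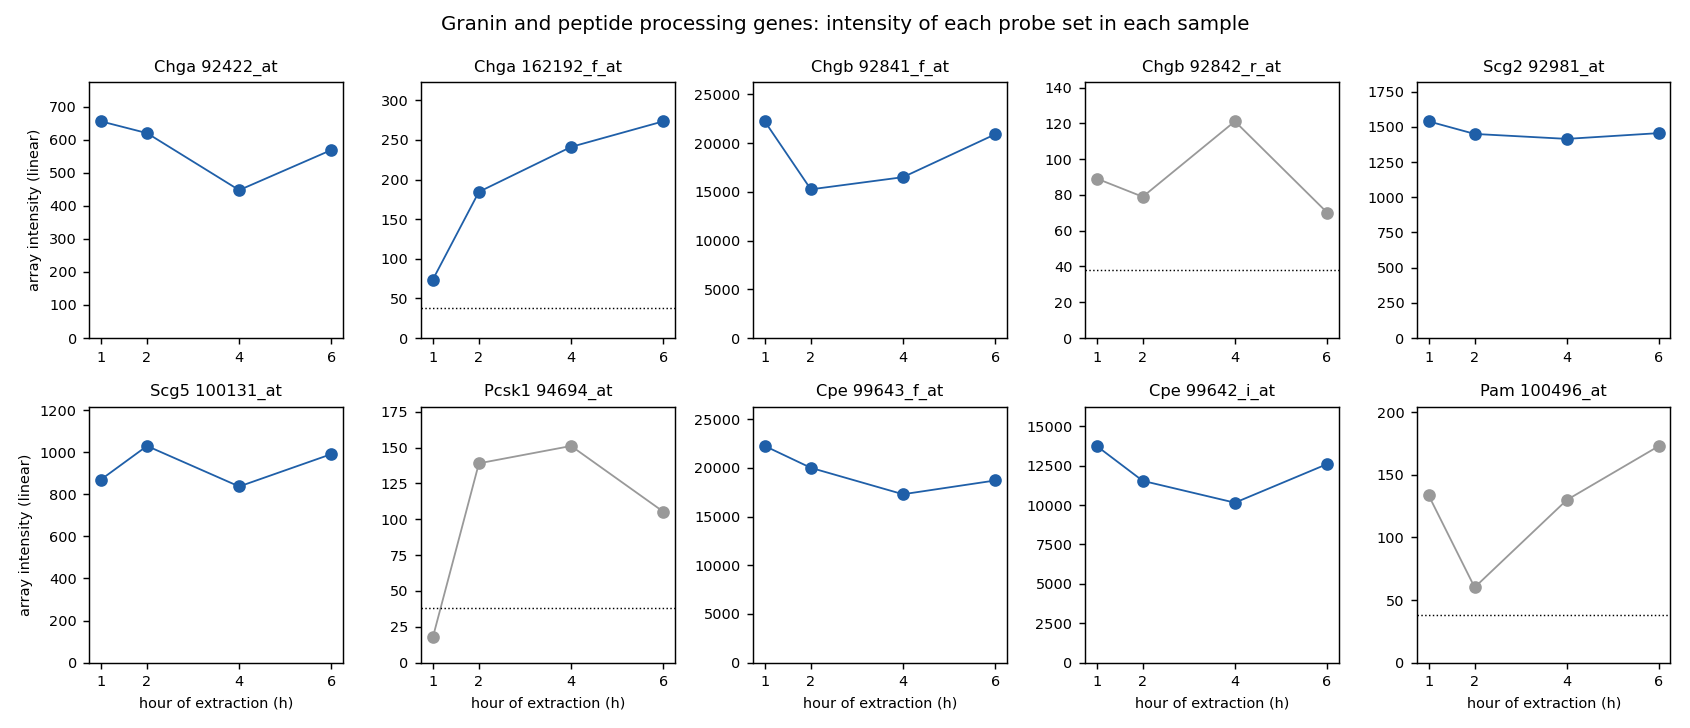
Intensity (linear scale, each panel from 0) of the 10 probe sets at 1, 2, 4 and 6 h, with 1 array per point. Blue probe sets passed the filter and grey ones did not, and the dotted line in dim panels is the measurable minimum of 38.3. Both Cpe probe sets and the first Chga probe set are lowest at 4 h, while the 2 Chga probe sets run in different directions.

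A linear slope of log2 intensity on the hour was fitted with limma over all 6500 probe sets past the filter. No probe set was called at an adjusted p of 0.05, with 0.0% up and 0.0% down, and so 0 of the 7 were called. At an unadjusted p under 0.05 there were 136 probe sets (2.09%), among them 1 of the 7. That was the second Chga probe set, with a slope of 0.33 ± 0.14 log2 per h (SE, n = 4), and limma's unadjusted p of 0.0405 became an adjusted p of 0.99996. It is 1 of 169 probe sets (2.6%) that were higher at each step. Without the 1 h sample its slope was 0.14.

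The other 6 slopes lay between -0.059 and 0.012 log2 per h. The first Chga probe set had -0.059 ± 0.075, Cpe -0.052 ± 0.05 on its first and -0.024 ± 0.054 on its second, and Scg2 -0.014 ± 0.058 (SE, n = 4 each). Chgb had 0.008 ± 0.059 and Scg5 0.012 ± 0.065. Of these 6, the first Cpe probe set is the one whose slope exceeds its SE in this fit, and none passed the test. In the fit with no filter its SE was 0.074, above its slope. There the first Chga probe set exceeded its SE instead (-0.059, SE 0.058). These p-values rest on the scatter of single arrays about a line, with no replicate at an hour. For each probe set, limma draws that scatter towards the scatter of other probe sets of like intensity. The weights were 9.8 prior against 2 residual degrees of freedom.

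**Figure D2:**
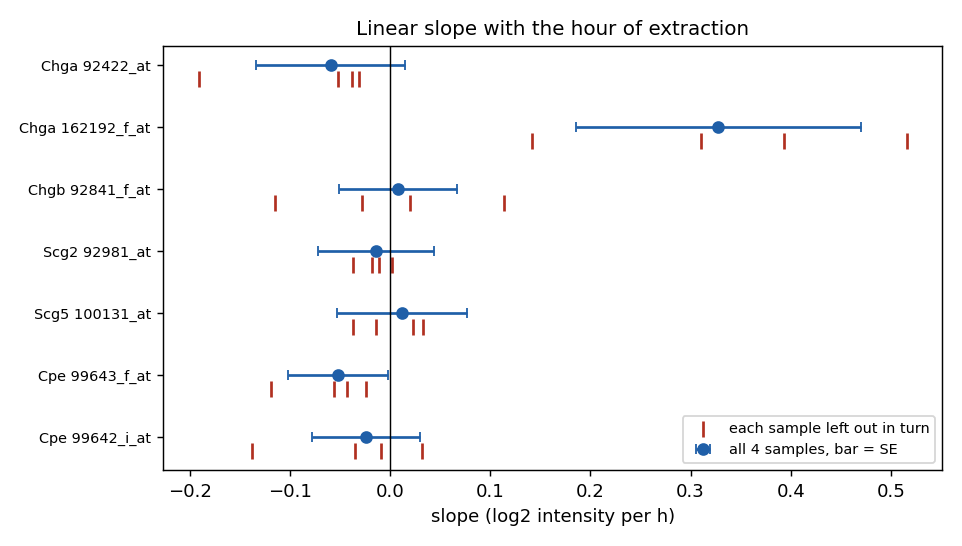
Slope of log2 intensity per hour (x axis) for the 7 probe sets past the filter. Blue points are the fit to all 4 samples with the SE as a bar, and red ticks are the slopes with each sample left out in turn. The second Chga probe set sits at 0.33, and the slopes of Chgb, Scg2, Scg5 and the second Cpe probe set take both signs when a sample is left out.

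Several granin and Cpe probe sets shared their highest and lowest hours. Of the 7 probe sets, 5 were highest at 1 h, against 23.0% of all probe sets past the filter. These were the first Chga, the first Chgb, Scg2 and both of Cpe. Likewise 5 of the 7 were lowest at 4 h (the first Chga, Scg2, Scg5 and both of Cpe), against 28.4% of all. With 1 probe set per gene, 4 of 5 genes were highest at 1 h, against 22.5% of 5527 genes, and 4 of 5 were lowest at 4 h, against 28.4%. With arrays scaled to equal medians 6 of 7 were lowest at 4 h (44.1% of all), and with quantile normalisation 4 of 7 (31.1% of all). Under both, 5 of 7 were highest at 1 h, against 27.6% of all with equal medians and 23.6% with quantile normalisation. The probe sets share the same 4 arrays, so these counts describe single arrays and carry no test.

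In size these shifts were small. Each hour was set against the mean of the other 3 on the log2 scale. The median of the 7 probe sets was 0.26 at 1 h, 0.05 at 2 h, -0.22 at 4 h and 0.1 at 6 h. That of all probe sets past the filter was 0.01, 0.01, 0.04 and 0.01. For the 650 brightest of these, which include the first Chgb and both Cpe probe sets, it was 0.05, 0.02, -0.07 and 0.01. Those 650 thus had the same signs as the 7, at smaller size. At 1 h, Chgb had 0.35, the first Chga probe set 0.28 and the Cpe probe sets 0.27 and 0.26, while Scg5 had -0.13 and the second Chga probe set -1.64. At 4 h, the first Chga probe set had -0.46 and the second Cpe probe set -0.31, while the second Chga probe set had 0.64. Scaling the arrays to equal medians moved the median of all probe sets at 4 h to -0.15 and that of the 7 to -0.41. With quantile normalisation these were 0.01 and -0.17, and the signs of the medians of the 7 held under both.

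**Figure D3:**
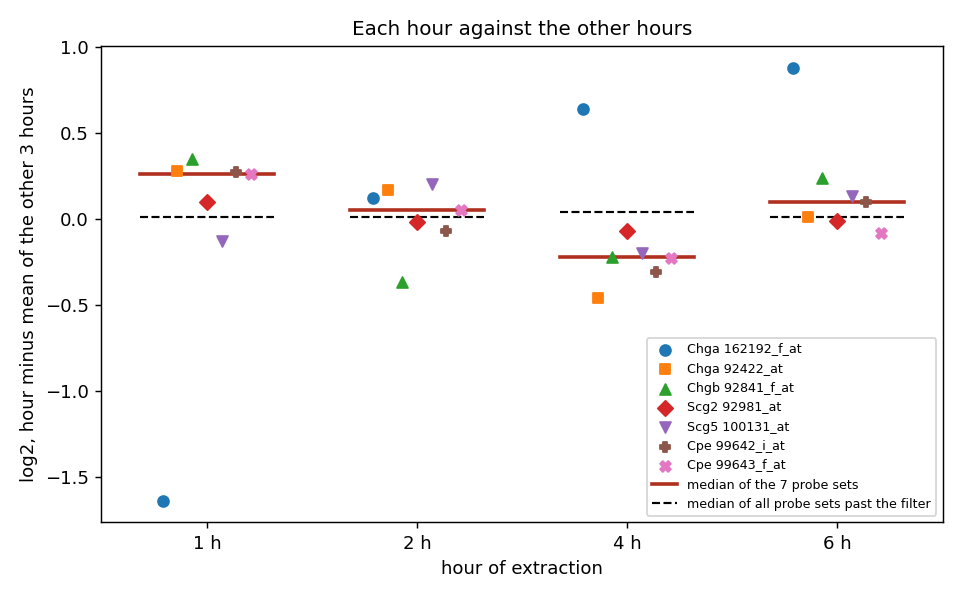
Log2 intensity at each hour minus the mean of the other 3 hours (y axis) for the 7 probe sets past the filter, 1 symbol each. Red lines are their median and dashed lines the median of all probe sets past the filter. At 1 h the red line is at 0.26 and at 4 h at -0.22, and the second Chga probe set lies on the other side of 0 at both hours.

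Array controls also differed between hours, but not in the order of the 7 probe sets, whose median was lowest at 4 h. The 9 probe sets for bacterial and phage hybridisation controls had a median of 0.43 at 1 h, -0.65 at 2 h, -0.03 at 4 h and 0.24 at 6 h on the same log2 scale. All 9 were lowest at 2 h, as was Chgb, and 8 of 9 were highest at 1 h. The ratio of the 3′ to the 5′ control probe set of Gapdh, a measure of RNA integrity and labelling, was 3.75, 6.33, 5.36 and 3.89, so it was low at the hours where Chgb was high. For beta-actin it was 3.03, 2.48, 2.59 and 2.54, so it was highest at 1 h, where Chgb was highest too. Their part in the results was not tested.

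The span between hours was also set against that of all probe sets. Of the 7 probe sets, 1 spanned over 2-fold (the second Chga), against 21.6% of all 6500. That one had a wider log2 range than 95.1% of them. The median span was 1.35-fold for the 7, 1.53-fold for all and 1.31-fold for the 650 brightest. It depended on the scaling: with arrays scaled to equal medians it was 1.54-fold for the 7 and 1.57-fold for all, and with quantile normalisation 1.25-fold and 1.53-fold. Of those 650 probe sets, 3.54% spanned over 2-fold. Chgb and both Cpe probe sets are among them, and at log2 ranges of 0.54, 0.36 and 0.44 they stand beside a median of 0.39.

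**Figure D4:**
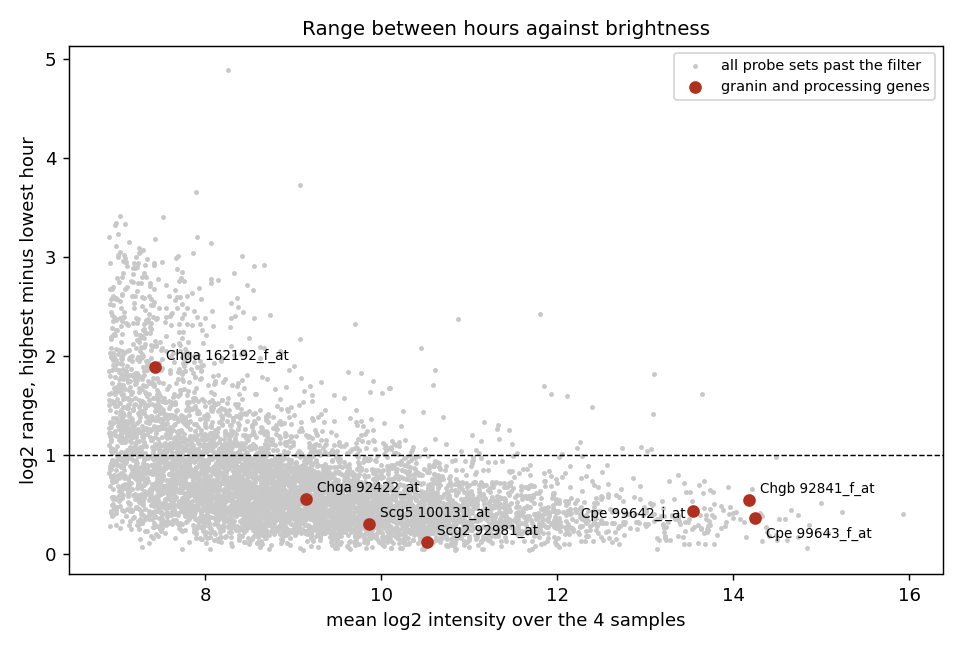
Log2 range between the highest and the lowest hour (y axis) against the mean log2 intensity (x axis) for 6500 probe sets in grey and the 7 of granins and Cpe in red. The dashed line is a 2-fold range. Scg2 lies near the bottom at a range of 0.12, and the second Chga probe set at 1.89 lies above the line among dim probe sets.

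The probe sets with the most similar order and size of values were found by the root-mean-square difference of centred log2 intensities over the 4 samples. For the first Chga probe set these were Fnbp4 (0.005), Fam3c (0.012) and Sar1b (0.018), where the median over 6498 candidates was 0.32. For the first Chgb probe set they were Gabrb1 (0.014), Pgap4 (0.018) and Pclo (0.019), where the median was 0.33. Gabrb1, a GABA-A receptor subunit, had 7051, 4800, 5116.2 and 6477.1. Pclo, the active zone protein piccolo, had 2563.5, 1742.4, 1946 and 2458.5. With 4 values per probe set this likeness is a description, with no test.

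Proteins related to granins or bound to convertases were measured in 5 of 6 listed genes, and 4 passed the filter. None of the 4 was called by limma, and 1 spanned over 2-fold. With 1 probe set per gene, as in these lists, 20% of all genes past the filter did so. That share stands beside the counts of the lists below as well. Pcsk1n, which encodes the convertase inhibitor proSAAS, had 7308.2, 5506.5, 4810.5 and 7272.1, high at 1 h and 6 h like Chgb. Resp18, a secretory granule protein, ran otherwise, with 665.2, 1391.3, 912 and 1064.4, lowest at 1 h. Scg3, the granin that binds Chga in the vesicle membrane, had 1029.3, 1036.9, 799.3 and 1102.8 on the brighter of its 2 probe sets, with 4 h lowest. The other is not shown.

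Among other convertases and trimming enzymes, 8 of 15 measured genes passed the filter, 0 were called and 2 spanned over 2-fold. Furin, the convertase of the constitutive pathway, was steady at 712.3, 757, 737.7 and 683.3. Pcsk5 had 72.9, 94.3, 199.9 and 156.6, highest at 4 h, and its other probe sets were lowest at 4 h (66.5, 137.4, 27.8 and 97.1 on one, 136.5, 165.6, 64.1 and 112.4 on the other). Rnpep, an aminopeptidase for basic residues, had 330.8, 301.6, 524.9 and 262.1. Of the peptide-degrading enzymes, 7 of 11 measured passed the filter, 0 were called and 2 spanned over 2-fold. Anpep, an aminopeptidase of cell surfaces, had 118.3, 110.7, 102.9 and 251.4, and the oligopeptidase Thop1 had 245.3, 193.1, 302.6 and 413.6.

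Of the genes for dense core vesicle membranes and release, 11 of 15 measured passed the filter, 0 were called and 1 spanned over 2-fold. In this list 5 of 11 were highest at 1 h and 4 lowest at 4 h. With 1 probe set per gene, 22.5% and 28.4% of all genes past the filter were so. At 2 h 4 were lowest, against 23.7% of all probe sets past the filter, a share not taken per gene. In the other lists the genes highest at 1 h were 1 of 4 granin-related genes, 0 of 8 convertases and trimming enzymes, 0 of 7 degrading enzymes and 2 of 13 precursors. Stx1a, a plasma membrane SNARE of release sites, had 1233.5, 549.7, 898.1 and 857.4, and Syt4, a synaptotagmin of dense core vesicles, had 316, 276.9, 181.6 and 204. Cadps, the priming factor of dense core vesicles, had 4388.5, 3275.3, 3409.8 and 4841.4, with 1 h and 6 h above the other hours as for Chgb. It was named after its values were seen, and it does not stand for the list. Ptprn and Vamp2 were highest at 4 h, and Cyb561 was highest at 2 h. The Cadps values are from the brighter of its 2 probe sets, which is of the f kind that can match related sequences. The other is not shown.

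Peptide precursors, the substrates of these enzymes, gave 13 genes past the filter of 16 measured. None was called, and 5 of the 13 spanned over 2-fold, against 20% of all genes past the filter. Trh, the precursor of thyrotropin-releasing hormone, had 30.7, 273.2, 406.6 and 272.3, at least 10.6-fold from 1 h to 4 h, and Pomc had 308.1, 350.5, 88.4 and 61.9. Over all 5 lists, 43 of 62 measured genes passed the filter, 0 were called up and 0 down, and the median log2 range was 0.63, against 0.61 for all probe sets.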

How the data were processed

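The deposited table gives 1 array intensity per probe set and sample for 12488 probe sets, on a linear scale, and no label says how the authors made it. After leaving out the highest and lowest 2% of values the mean was 499.9 on each array. That equality points to a scaling of each array to 1 target by the authors, and the deposited intensities were used without further scaling. Array controls (66), probe sets with no symbol (1193) and those with several (396) were left out. Symbols come from GEO's platform annotation, updated through the gene identifier in a RefSeq table of GRCm38.p6 (10817 of 10833 matched). Its coordinates are given for promoter sequences alone, since the array names no build.

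Values under the 20th percentile (38.3) were set to it before log2. Slopes on the hour were fitted in R 4.3.3 by limma 3.58.1 (linear model and eBayes with an intensity trend, two-sided). Benjamini-Hochberg adjustment ran over 6500 probe sets, with 2 residual degrees of freedom. The code was also run on simulated data with planted slopes and independent noise. That noise holds no effect shared by an array, so the run cannot say which slopes these 4 arrays could detect. All single-symbol probe sets were kept rather than 1 per gene. Fold spans of over 2 were counted with no test. Named genes are the members, the pair with the largest log2 range in each pathway list, and the 3 probe sets most like each of the Chga and Chgb first probe sets, the widest-ranging of 1 per gene. Scg3, Furin and Cadps were named after their values were seen. The members and lists were chosen with earlier results of these data known. Alternatives changed the scaling, the floor, the filter, the unit of test, the variance model and the samples used.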

Additional observations from a re-analysis of the deposited data

Results flagged for a closer look

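In 4 of 42 checked sets of values, 1 sample stood away from the other 3 by Dixon's test on the gap over the range, which flags about 1 in 20 groups by chance. None was a granin or processing gene. Ttr was high at 4 h (0.935), Anpep high at 6 h (0.896), Calb1 high at 2 h (0.846), and the summed endothelial and mural markers were low at 6 h (0.844; 2860.7, 2741.2, 2888.8 and 1941.9).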

How the results depend on the processing

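The count of probe sets with a called slope was 0 under all 9 alternatives that keep the 4 samples, and between 0 and 18 with a sample left out, from a line through 3 arrays. No granin or processing probe set was called in any of the 13, which tested 7 of them, apart from 10 with no filter, 6 with the filter at the 60th percentile and 5 with 1 probe set per gene. Probe sets spanning over 2-fold numbered 3699 with no filter (34.1%), 393 with the filter at the 60th percentile (9.07%) and 787 to 1060 with a sample left out. Among the granin and processing probe sets these counts were 3, 0, and 0 to 1, and 0 with 1 probe set per gene. The single one is the second Chga probe set, whose log2 range was 0.57 without the 1 h sample. With arrays scaled to equal medians the log2 ranges of Scg5, Scg2 and both Cpe probe sets were wider by more than their SD (0.48, 0.32, 0.56 and 0.63), and the slope of Chgb was -1e-04, opposite in sign. With a sample left out, slopes ran from -0.1147 to 0.1136 for Chgb, -0.0372 to 0.0332 for Scg5, -0.0373 to 0.0014 for Scg2 and -0.1383 to 0.0318 for the second Cpe probe set, and the cause was not tested. No paired analysis was possible because each hour has 1 sample. The number of arrays limits precision. Pcsk1, Pam and the second Chgb probe set lay under the filter on dim values.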
